A study of Mus musculus with 3 samples.

Results

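ATP-binding cassette (ABC) genes were read on the 3 arrays of muscle stem cells (MuSC, satellite cells), the stem cells of skeletal muscle. Members were all genes whose annotated symbol is Abc followed by a letter from a to g and a digit, and 45 of the 18193 genes with a probe set of their own met this rule, with 14 in subfamily A, 8 in B, 10 in C, 3 in D, 1 in E, 3 in F and 6 in G. Cells came from muscle of wild-type C57BL/6 mice 8 weeks old. Fresh MuSC were sorted cells that had not been cultured, the −OSM culture held MuSC kept for 3 days in 10% FBS without Oncostatin M (OSM), and the +OSM culture held MuSC kept for 3 days in 10% FBS with OSM at 100 ng/mL. OSM is a cytokine of the interleukin-6 family that the study examines as an inducer of MuSC quiescence. Each condition was 1 array, so no difference has a replicate check, no test was possible and every comparison is a description of these arrays. How many animals went into each array is not stated, and all cells had been through enzyme digestion and a sort for CD34 and α7 integrin that left out cells positive for CD45, CD31, CD11b or Sca1.

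ABC proteins bind and hydrolyze ATP, and most use it to carry a substrate across a membrane. Full transporters hold a pair of ATP-binding domains and a pair of membrane domains, whereas the dimerizing transporters of subfamilies D and G and part of B assemble from separate chains. Subfamily A moves lipids, B and C hold the multidrug efflux pumps, D serves peroxisomes and lysosomes, and G holds sterol exporters and the breast cancer resistance protein. Subfamilies E and F have no membrane domains and act in translation. In muscle, efflux of a DNA-binding dye through Abcg2 has been used to sort a side population of progenitor cells.

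Signals are MAS5 signals, which condense the probes of a probe set into 1 value on a linear scale, and the mean signal of an array without its top and bottom 2% was 198 to 199 on all 3. Ratios were taken after signals had been raised to a floor of 40. A gene was measured in a comparison when at least 1 of its 2 arrays lay above the floor, and "at least" before a fold marks a lower bound, from a gene whose lower signal was not above 40. A gene whose bound was under 2-fold was counted as within 2-fold, although its true fold may be larger. Levels of different genes come from different probes and are not set against each other. The share of all 18193 genes above the floor was 65.8% in fresh MuSC, 58.9% in the −OSM culture and 57.0% in the +OSM culture. For the β-actin controls the 3′ probe set read 2.35 times the 5′ probe set in fresh MuSC and 1.40 and 1.41 times in the cultures, a measure of how whole the RNA was, and its part in the ratios to fresh MuSC was not tested. In sorted bulk cells, fewer cells of a type and less RNA per cell cannot be told apart.

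Of the 45 ABC genes, 31 lay above the floor on at least 1 array, 28 of them in fresh MuSC, 23 in the −OSM culture and 25 in the +OSM culture. The other 14 stayed under it on all 3 arrays. These were Abca2, Abca4, Abca12, Abca13, Abca14, Abca16, Abcb11, Abcc2, Abcc6, Abcc8, Abcc12, Abcd2, Abcg3 and Abcg5, with highest signals from 4 to 37. They include the retinal transporter Abca4, the bile salt export pump Abcb11 and the pancreatic sulfonylurea receptor Abcc8. Abca15, Abca17 and Abcb5 were not analysed here.

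Between fresh MuSC and the −OSM culture, ABC genes differed in both directions. In subfamily A the genes past 2-fold as deposited were all higher in fresh MuSC. Of 30 measured members, 9 (30.0%) were higher in fresh MuSC by at least 2-fold, where 20.4% of all measured genes were, and 6 (20%) were at least 2-fold lower, against 15.0% of all. The higher genes were Abca1, Abca3, Abca5, Abca8a, Abca8b, Abca9, Abcb1a, Abcb1b and Abcg1. The lower genes were Abcb6, Abcb8, Abcc9, Abcc10, Abcf3 and Abcg2. In subfamily A 6 of 8 measured genes were higher in fresh MuSC and 0 were lower, in B 2 were higher and 2 lower of 7, in C 0 higher and 2 lower of 6, in F 0 higher and 1 lower of 3, and in G 1 higher and 1 lower of 3. Neither measured gene of D nor the gene of E differed by 2-fold. In A the split was 5 higher and 1 lower after median centring and 6 higher and 1 lower after quantile normalization. A gene above the floor on 1 array alone is measured because it is high there. Among the 21 members above the floor on both arrays 5 were higher and 4 lower, and the share of all such genes was not taken. The split depended on the scaling, as did that of all genes. After each array was centred on its median 7 (24.1%) were higher and 12 (41.4%) lower, against 12% and 28% of all. After quantile normalization 8 (27.6%) were higher and 10 (34.5%) lower, against 17% and 19.4% of all.

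Between the cultures most ABC genes, 20 of 25 measured, lay within 2-fold. Another 4 (16.0%) were at least 2-fold higher in the +OSM culture than in the −OSM culture, against 6.07% of all measured genes, and 1 (4%) was lower, against 4.39% of all. The higher genes were Abca1, Abca8a, Abcb1b and Abcc4, and the lower gene was Abcg2. Without a floor 5 of 45 (11.1%) were higher, against 12.1% of all genes. Against fresh MuSC, the +OSM culture had 3 of 31 measured members (9.68%) at least 2-fold higher, against 13.8% of all genes, and 8 (25.8%) lower, against 17.2% of all. Abcb8, Abcc9 and Abcf3 were the higher genes, and Abca1, Abca3, Abca5, Abca8a, Abca8b, Abca9, Abcb1a and Abcg1 the lower. After median centring this last split was 13 higher (43.3%) and 7 lower (23.3%), against 33.7% and 8.28% of all genes. After quantile normalization it was 6 (20%) and 7 (23.3%), against 17.1% and 14.1% of all. The comparisons share arrays in pairs, so they are not independent of each other.

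**Figure D1:**
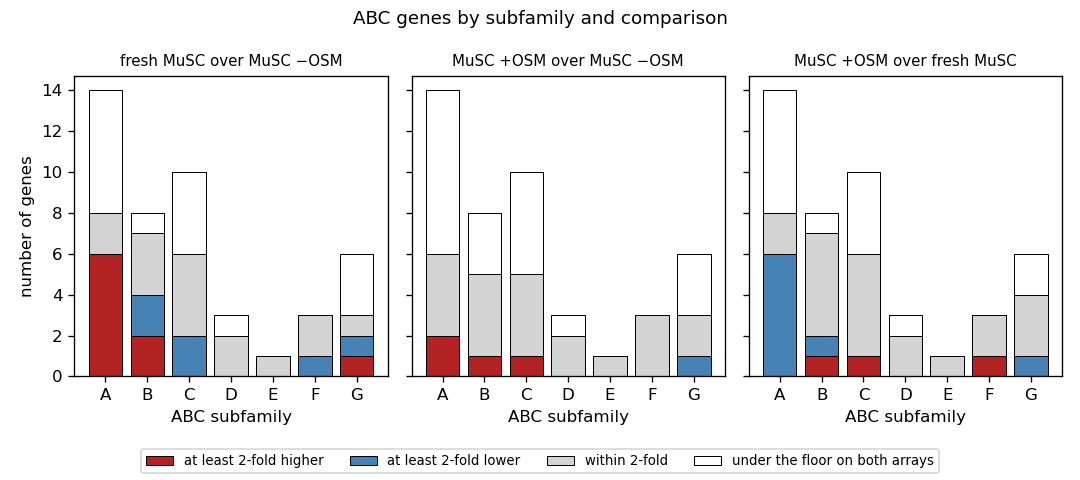
Number of ABC genes in each subfamily (A to G, x axis) that were at least 2-fold higher (red), at least 2-fold lower (blue), within 2-fold (gray) or under the floor of 40 on both arrays (white), in 3 comparisons of 1 array with 1 array. Gray includes genes whose lower bound was under 2-fold. Subfamily A has 6 genes higher in fresh MuSC than in the −OSM culture and 6 lower in the +OSM culture than in fresh MuSC, and no other subfamily has more than 2 in a direction.

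Within subfamily A, the widest difference belonged to a gene in a run of neighbours. Abca8b, Abca8a, Abca9, Abca6 and Abca5 stand side by side on mouse chromosome 11 in the RefSeq table used here, with no other protein-coding gene between them. They encode lipid transporters whose substrates are little known, apart from a place for Abca5 in late endosomes and lysosomes. The signal of Abca8a was 8306 in fresh MuSC, 40 in the −OSM culture and 111 in the +OSM culture. The signal without OSM was at the floor itself, so folds against it are bounds. Abca8a was thus high in fresh cells alone, at least 208-fold above the −OSM culture and 74.8-fold above the +OSM culture, and at least 2.77-fold higher with OSM than without it. With a floor of 80 the difference between the cultures was 1.39-fold. Abca8b had signals of 1311, 60 and 41 in fresh MuSC, the −OSM culture and the +OSM culture, or 21.9-fold more in fresh MuSC than in the −OSM culture and 1.46-fold less with OSM than without it.

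Abca9 had signals of 402, 32 and 20 in that order, above the floor in fresh MuSC only, where it was at least 10.1-fold higher than in either culture. Its other probe set had 48, 21 and 11, and with the mean of both the bound was 3.47-fold. Abca5 had 1742, 432 and 430, which makes it 4.03-fold higher in fresh MuSC than in the −OSM culture and level between the cultures. Its other probe set had 521, 71 and 62. Abca6 had 61, 9 and 9, a bound of at least 1.52-fold for fresh MuSC over either culture, and passed 2-fold only with the floor at 20 or without a floor. So 4 of these 5 neighbours were above the −OSM culture in fresh MuSC by at least 2-fold, where 20.4% of all measured genes were. The count was the same under median centring and quantile normalization, where 12% and 17% of all were. Of the 3 measured between the cultures Abca8a alone differed by 2-fold, and 6.07% of all were higher with OSM. The flanking gene Map2k6, a kinase of the p38 pathway, had signals of 70, 7 and 24, and the gene on the other side, 1700012B07Rik, stayed under the floor at 2 to 3. Abca8a and Abca8b are close paralogs, and probe sequences were not used here to tell how far their probe sets read each gene apart.

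The sequences upstream of these genes are shown because these neighbours were all higher in fresh MuSC than in either culture. RefSeq starts on build GRCm38.p6 were matched for 35 of the 45 ABC genes, with 42 starts, and the letters are the 250 bases before the start, 5′ to 3′ on the gene's strand. All 4 genes lie on the minus strand, Abca8a at chr11:110095938-110096187, Abca8b at chr11:109995846-109996095, Abca9 at chr11:110168154-110168403 and Abca5 at chr11:110337717-110337966. Capitals mark motifs found on either strand. These are the E-box, spelled CANNTG, the GC box of Sp factors, spelled GGGCGG, the box named by its letters CCAAT, and the TATA box, spelled TATAAA.
Abca8a: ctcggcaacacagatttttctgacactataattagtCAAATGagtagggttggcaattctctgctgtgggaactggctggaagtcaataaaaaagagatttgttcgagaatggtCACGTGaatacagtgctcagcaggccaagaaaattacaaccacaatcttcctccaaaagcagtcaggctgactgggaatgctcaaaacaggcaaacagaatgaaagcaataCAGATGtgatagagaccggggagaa
Abca8b: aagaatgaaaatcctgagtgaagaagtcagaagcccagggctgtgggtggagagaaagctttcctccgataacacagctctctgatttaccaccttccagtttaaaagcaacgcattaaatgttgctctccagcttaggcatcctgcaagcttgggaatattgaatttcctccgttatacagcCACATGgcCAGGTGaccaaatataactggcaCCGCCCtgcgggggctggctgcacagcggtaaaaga
Abca9: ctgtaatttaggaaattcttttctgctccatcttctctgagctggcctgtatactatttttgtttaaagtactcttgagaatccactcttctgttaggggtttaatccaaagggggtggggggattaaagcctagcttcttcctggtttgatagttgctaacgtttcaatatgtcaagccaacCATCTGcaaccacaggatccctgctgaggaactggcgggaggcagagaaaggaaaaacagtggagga
Abca5: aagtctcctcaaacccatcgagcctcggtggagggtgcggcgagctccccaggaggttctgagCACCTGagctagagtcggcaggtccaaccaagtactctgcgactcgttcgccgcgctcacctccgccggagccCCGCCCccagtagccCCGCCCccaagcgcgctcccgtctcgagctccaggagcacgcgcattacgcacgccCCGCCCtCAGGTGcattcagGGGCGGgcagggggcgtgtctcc

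GC content was 69.2% for Abca5, 43.2% for Abca8a, 48.8% for Abca8b and 44.4% for Abca9. The window of Abca5 held 25 CpG dinucleotides and 4 GC boxes, against 2 to 6 CpG dinucleotides in the other 3, of which only Abca8b held a GC box. Aligned end to end, these 4 windows shared 44.6% to 51.5% of positions, no more than they shared with the windows of Abcb1a and Abcb1b, at 47.4% to 51.8%. Over the 42 starts of ABC genes, 83.3% held an E-box against 66.2% of all 32851 starts in the table, 47.6% a GC box against 32.7%, 28.6% a CCAAT box against 33.8% and 11.9% a TATA box against 12.4%. The letters TTCNNNGAA, bound by STAT factors, stood at 1 start (2.4%), that of Abcc5, against 7.0% of all, and the AP-1 letters TGANTCA at 0, against 6.7%. Median GC content was 57.2% over the windows of ABC starts and 52.4% over all, and its part in these shares was not tested. Some genes have several starts and count more than once. A match is a description of the letters only, and a window without one says nothing about the factor.

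The rest of subfamily A held 3 genes above the floor. Abca1, which exports cholesterol and phospholipid to apolipoproteins, had signals of 707 in fresh MuSC, 58 in the −OSM culture and 121 in the +OSM culture. It was 12.2-fold higher in fresh MuSC and 2.09-fold higher in the +OSM culture than in the −OSM culture, the latter below 2-fold after quantile normalization and with a floor of 80. Its other probe sets had 70, 17 and 7 and 39, 3 and 6, and with the mean of probe sets the fold between fresh MuSC and the −OSM culture was 4.62. Abca3, the lipid transporter of lung surfactant, had 360, 124 and 94, or 2.90-fold more in fresh MuSC than in the −OSM culture, just under 2-fold at a log2 ratio of 0.98 after median centring and 0.99 with its lowest probe set above the floor, and 1.32-fold less with OSM than without it. Abca7, a phospholipid transporter related to Abca1, had 86, 126 and 115 and lay within 2-fold in all 3 comparisons as deposited, although it was lower in fresh MuSC than in the −OSM culture by over 2-fold after median centring and after quantile normalization. Of the 8 measured genes of subfamily A, Abca6 and Abca7 were thus the ones not past 2-fold between fresh MuSC and the −OSM culture. For Abca6 this was a lower bound only.

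**Figure D2:**
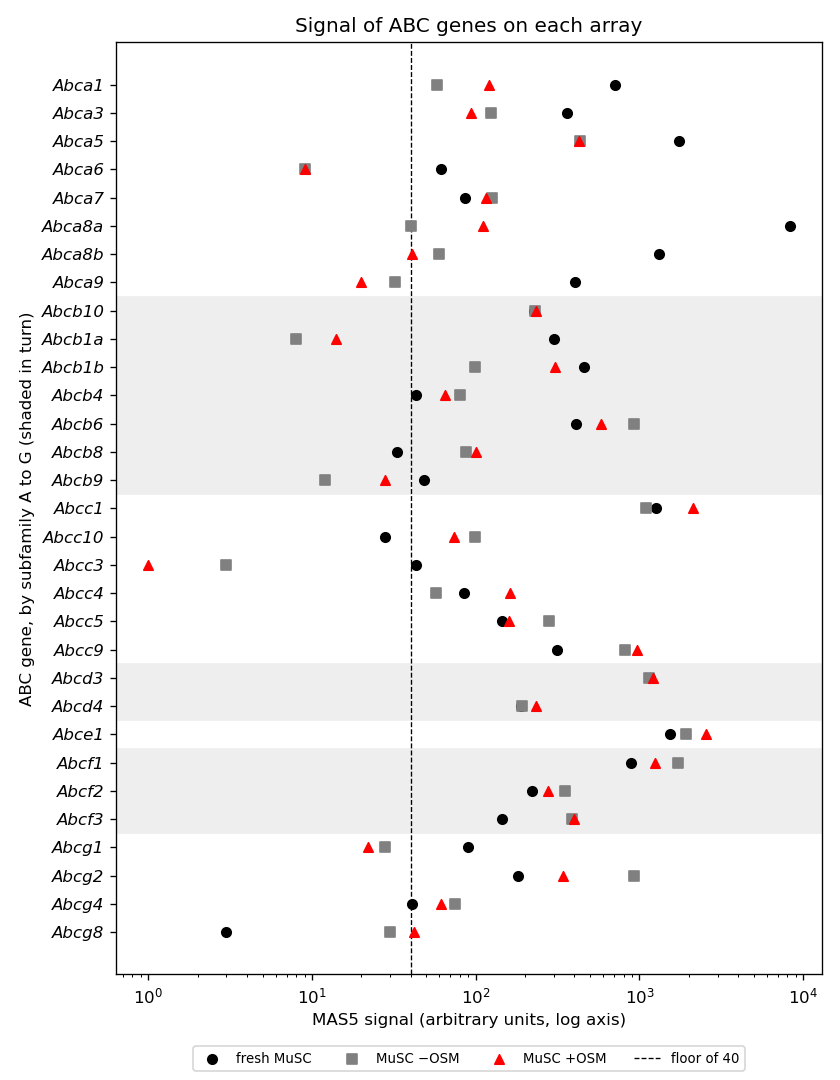
MAS5 signal (x axis, log scale) of the 31 ABC genes above the floor of 40 on at least 1 array, by 1 array per condition (black circles, fresh MuSC; gray squares, the −OSM culture; red triangles, the +OSM culture), and subfamilies A to G shaded in turn. Abca8a lies at 8306 in fresh MuSC and at 40 and 111 in the cultures, whereas Abcg2 lies at 180 in fresh MuSC, 929 in the −OSM culture and 339 in the +OSM culture.

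Markers of other cell types differed between fresh and cultured cells too, and their part in the ABC ratios was not tested. Of 7 fibroblast markers on the array, 7 were above the −OSM culture in fresh MuSC by at least 2-fold, and their summed signal was 43899 in fresh MuSC, 4343 in the −OSM culture and 10491 in the +OSM culture. Dcn, a matrix proteoglycan of fibroblasts, had 12179, 32 and 373. Of 8 pericyte and smooth muscle markers 6 were higher in fresh MuSC, although their sum was 12890, 19996 and 14594, of which Acta2, lower in fresh MuSC, gave 6543, 19053 and 13114. The list of 8 endothelial markers summed to 1272, 135 and 122, with 3 of the 4 measured genes higher in fresh MuSC. Its defining gene Pecam1, which encodes the CD31 of the sorting gate, was under the floor at 4, 4 and 2. All 4 Schwann cell markers on the array were higher in fresh MuSC, with sums of 4973, 147 and 356. For 8 leukocyte and macrophage markers the sums were 1402, 282 and 251, with Lyz2 at 1204, 13 and 13 and Ptprc, which encodes CD45, at 1, 2 and 7. Of 8 satellite cell markers 5 were higher in fresh MuSC than in the −OSM culture, namely Pax7, Myf5, Calcr, Vcam1 and Cd34, and Itga7 and Chrna1 were lower. Pax7, the transcription factor that defines satellite cells, had 4006, 282 and 431, and Calcr and Cd34 were under the floor in both cultures. The sums of 24953, 17544 and 14179 rest largely on Chrna1 in the cultures, at 13791 without OSM and 9443 with it.

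Multidrug efflux pumps held genes of both directions. Of 9 listed genes 8 were measured between fresh MuSC and the −OSM culture. In fresh MuSC 2 were higher and 2 lower, beside 20.4% and 15.0% of all measured genes. With 8 genes these counts are not told apart from the shares of all genes. Abcb1a and Abcb1b, neighbours on chromosome 5, encode the mouse forms of P-glycoprotein, which exports hydrophobic drugs. The signal of Abcb1a was 299 in fresh MuSC, 8 in the −OSM culture and 14 in the +OSM culture, above either culture in fresh MuSC by at least 7.47-fold. Its other probe set had 181, 13 and 4. Abcb1b had signals of 460, 99 and 305, or 4.65-fold more in fresh MuSC and 3.08-fold more in the +OSM culture than in the −OSM culture, and 1.51-fold less in the +OSM culture than in fresh MuSC. Abcb1a was therefore seen in fresh MuSC alone and Abcb1b on all 3 arrays. The other probe set of Abcb1b lay near the floor, at 33, 43 and 20, and did not show these differences, and with the mean over both the ratio of the +OSM culture to the −OSM culture was 1.69-fold.

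The windows before the starts of Abcb1a, chr5:8566841-8567090, and Abcb1b, chr5:8797897-8798146, both on the plus strand, are shown since these paralogs parted in culture, with the same capitals as above.
Abcb1a: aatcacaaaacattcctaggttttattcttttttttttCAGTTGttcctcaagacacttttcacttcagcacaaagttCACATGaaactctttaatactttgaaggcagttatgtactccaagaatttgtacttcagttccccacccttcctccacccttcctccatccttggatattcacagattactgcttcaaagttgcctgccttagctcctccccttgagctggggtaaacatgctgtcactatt
Abcb1b: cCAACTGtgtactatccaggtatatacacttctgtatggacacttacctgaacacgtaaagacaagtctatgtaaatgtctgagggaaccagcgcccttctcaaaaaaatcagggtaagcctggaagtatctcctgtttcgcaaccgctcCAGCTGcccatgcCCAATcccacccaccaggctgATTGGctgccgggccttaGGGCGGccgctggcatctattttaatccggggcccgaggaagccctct

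The window of Abcb1a had 40.4% GC, 0 CpG dinucleotides and neither a CCAAT nor a GC box. That of Abcb1b had 52.8% GC, 9 CpG dinucleotides, 2 CCAAT boxes between 87 and 62 bases before the start and a GC box from 48 to 43 bases before it. These windows shared 50% of aligned positions. Abcb4, which stands beside Abcb1b and moves phosphatidylcholine into bile, had signals of 43 in fresh MuSC, 80 in the −OSM culture and 65 in the +OSM culture, opposite in order to Abcb1b and within 2-fold as deposited. The flanking gene Crot, a peroxisomal carnitine transferase, had 261, 140 and 321, and was 2.29-fold higher in the +OSM culture than in the −OSM culture.

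Abcg2, the breast cancer resistance protein and the pump behind the side population, ran against the A genes. Its signal was 180 in fresh MuSC, 929 in the −OSM culture and 339 in the +OSM culture. It was 5.16-fold lower in fresh MuSC and 2.74-fold lower in the +OSM culture than in the −OSM culture, both past 2-fold under each of 7 alternatives for scaling, floor and probe set, and 1.88-fold higher in the +OSM culture than in fresh MuSC. Abcg2 has 1 probe set on the array, so no second reading was available and the choice of probe set could not change its ratios. Its signals lay above every floor used, so raising or lowering the floor could not change them either. Dropping the floor for a pseudocount hardly could, which left the scaling of the arrays as the only real check. Among subfamily C pumps, Abcc4, which exports cyclic nucleotides and prostaglandins, had 85, 57 and 161. It was 2.82-fold higher with OSM than without it, past 2-fold under each of the 7 alternatives. Abcc4 is also a gene of 1 probe set, so the choice of probe set could not change its ratio.

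Abcc1, which exports glutathione conjugates, had signals of 1265 in fresh MuSC, 1099 in the −OSM culture and 2136 in the +OSM culture. It was 1.94-fold higher with OSM than without it, just under 2-fold as deposited and over it after median centring, and its other probe set had 126, 187 and 257. Abcc10 had 28, 99 and 74, at least 2.48-fold lower in fresh MuSC than in the −OSM culture but within 2-fold of it with a floor of 80. Abcc3, an exporter of organic anions, had 43, 3 and 1, barely above the floor in fresh MuSC. Abcc5, an exporter of cyclic nucleotides, had 145, 279 and 159 by the probe set used, and its other probe sets, given further on, disagreed in direction between fresh MuSC and the −OSM culture. For this list of pumps the median log2 ratio was 0.15 in fresh MuSC over the −OSM culture and 0.27 in the +OSM culture over the −OSM culture. For all measured genes these medians were 0.14 and -0.01. After median centring the first was -0.36 for the pumps and -0.36 for all measured genes.

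**Figure D3:**
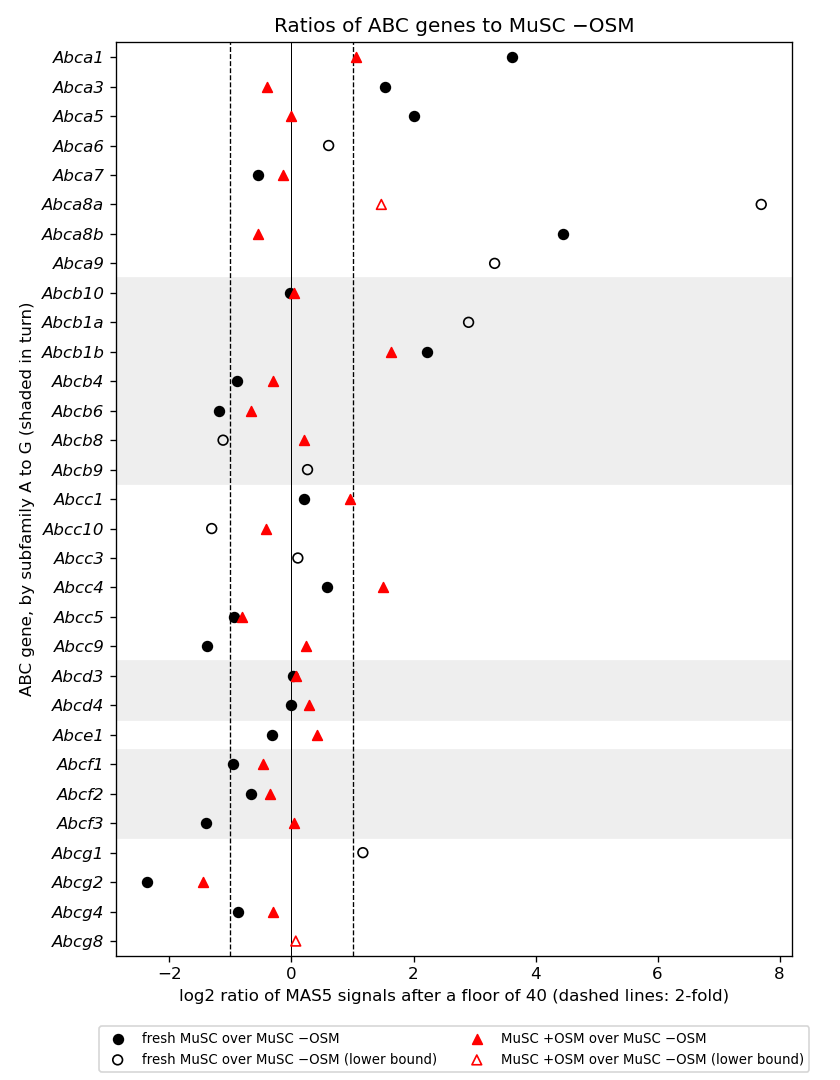
log2 ratio to the −OSM culture (x axis) of the 31 ABC genes above the floor of 40 on at least 1 array, for fresh MuSC as black circles and the +OSM culture as red triangles, with open symbols for lower bounds and dashed lines at 2-fold. Both ratios share the −OSM culture array, and a gene under the floor on both arrays of a comparison has no symbol for it. Abca8a lies farthest to the right for fresh MuSC, at a bound of 7.70, and Abcg2 farthest to the left, at -2.37.

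Sterol exporters were set beside the receptors that sense sterols and xenobiotics and the genes that liver X receptors (LXR) switch on. Abcg1, which passes cholesterol to lipoproteins, had signals of 90 in fresh MuSC, 28 in the −OSM culture and 22 in the +OSM culture, above the −OSM culture in fresh MuSC by at least 2.25-fold, but under 2-fold after median centring, after quantile normalization and with a floor of 80. Its relative Abcg4 had 41, 75 and 61 by one probe set and 57, 22 and 19 by the other, so its direction is unsettled. The sterolin gene Abcg8 reached 42 in the +OSM culture and its partner Abcg5 stayed under the floor. Abca1 and Abcg1 are both targets of LXR. Of 9 measured LXR target and sterol efflux genes 3 were above the −OSM culture in fresh MuSC by at least 2-fold and 0 were lower, where 20.4% and 15.0% of all measured genes were, and 0 of 8 differed by 2-fold with OSM. With 9 genes this count is not told apart from the share of all genes, and it was 2 with the mean of probe sets. Apoe, an apolipoprotein that takes up exported lipid, had 3689, 27 and 55. Scd1, a fatty acid desaturase, had 3137, 969 and 837, and the lipase gene Lpl had 2996, 939 and 1177. The LXRα gene Nr1h3 had 55, 10 and 40.

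Among the receptors, 3 of 9 measured were higher in fresh MuSC than in the −OSM culture and 1 was lower, beside 20.4% and 15.0% of all measured genes. With OSM, Ahr, the aryl hydrocarbon receptor gene, was the only one of 6 measured that was at least 2-fold higher, beside 6.07% of all. It had 674 in fresh MuSC, 88 in the −OSM culture and 618 in the +OSM culture. With the lowest probe set above the floor 0 of 4 measured receptors were higher with OSM. Pparg, a lipid-sensing receptor of adipocytes and macrophages, was the lower one, at 5, 150 and 24. Ppard had 102, 6 and 55 and Rxrb 504, 165 and 295. A relation between receptors and transporters cannot be tested with 3 arrays.

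By the probe sets used, transporters of mitochondria were lower in fresh MuSC than in the −OSM culture or level. Abcb6, a porphyrin transporter of mitochondria and endolysosomes, had signals of 407 in fresh MuSC, 924 in the −OSM culture and 586 in the +OSM culture, 2.27-fold lower in fresh MuSC and 1.58-fold lower in the +OSM culture than in the −OSM culture. The former passed 2-fold under all 7 alternatives. Abcb6 has 1 probe set and signals above every floor used, so only the scaling of the arrays was a real check. Abcb8, of the inner mitochondrial membrane, had 33, 87 and 100, at least 2.17-fold lower in fresh MuSC than in the −OSM culture, but 1.09-fold with a floor of 80. Abcb10, which works with the iron importer mitoferrin, was flat at 226, 229 and 235, while its other measured probe set had 145, 66 and 74.

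Heme and iron-sulfur genes were read as the pathway around these transporters. Of 11 measured, 3 were at least 2-fold lower and 1 higher in fresh MuSC than in the −OSM culture, beside 15.0% and 20.4% of all measured genes. After median centring 7 were lower and 0 higher, beside 28% and 12% of all. Alas1, the rate-limiting enzyme of heme synthesis, had 222 in fresh MuSC, 740 in the −OSM culture and 794 in the +OSM culture, and Fech, which inserts iron into heme, had 737, 2386 and 1740. Uros, an enzyme between them, had 177, 446 and 428, so these 3 genes stayed high in both cultures. The higher gene was Slc25a28, mitoferrin of most tissues, at 514, 191 and 151. Ppox, a later enzyme of heme synthesis, had 317, 160 and 146. It was 2.17-fold lower in the +OSM culture than in fresh MuSC and 1.98-fold lower in the −OSM culture, just under 2-fold. Between the cultures only Iscu, the scaffold of iron-sulfur clusters, passed 2-fold, at 1003 without OSM and 2270 with it.

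The peptide transporter gene Abcb9, of lysosomes, lay near the floor at 48, 12 and 28. The related peptide transporters of antigen processing belong to subfamily B but carry other symbols, so the rule does not take them. Tap1 had signals of 124 in fresh MuSC, 59 in the −OSM culture and 74 in the +OSM culture and Tap2 had 289, 242 and 438. Tap1 was over 2-fold higher in fresh MuSC than without OSM as deposited, but not after median centring, after quantile normalization or with a floor of 80. Cftr, the chloride channel of subfamily C, stayed under the floor at 1 to 12. Among 6 partners of these transporters in peptide loading, Tapbp and B2m were above the −OSM culture in fresh MuSC by at least 2-fold. Fresh MuSC and the −OSM culture had 604 and 124 for the chaperone gene Tapbp and 5414 and 1912 for the class I light chain B2m. Only 1 of the 6 was higher by 2-fold after median centring. Beside these counts stand 20.4% of all measured genes as deposited and 12% after centring. Counts from 6 genes are not told apart from these shares. Between the cultures 0 of the 6 differed by 2-fold.

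Abcc9 encodes the sulfonylurea receptor of ATP-sensitive potassium channels in muscle and vessels. Its signal was 314 in fresh MuSC, 816 in the −OSM culture and 963 in the +OSM culture, so it was 2.60-fold lower in fresh MuSC than in the −OSM culture, 3.07-fold higher in the +OSM culture than in fresh MuSC and 1.18-fold apart between the cultures. A second probe set agreed in direction at 73, 177 and 229, and the remaining one had 104, 109 and 195. With the mean of probe sets the log2 ratio of fresh MuSC over the −OSM culture was -0.91, under 2-fold. Of the pore subunits that pair with it, Kcnj11 had 718, 736 and 831 and did not differ by 2-fold, and Kcnj8, of pericytes and smooth muscle, ran the other way at 203, 23 and 83. The receptor gene and the pore gene Kcnj8 thus had opposite orders between fresh MuSC and the −OSM culture.

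Genes of subfamilies D, E and F were above the floor on every array, apart from Abcd2. Abcd3, a fatty acid transporter of peroxisomes, had signals of 1163 in fresh MuSC, 1149 in the −OSM culture and 1203 in the +OSM culture and was level on all 3 arrays. Abcd4, which serves cobalamin release from lysosomes, had 190, 192 and 233 and by its other probe set 62, 25 and 60. Of 8 measured genes of peroxisome assembly and fatty acid breakdown 7 lay within 2-fold between fresh MuSC and the −OSM culture and 8 between the cultures, the exception being Pex14, a docking protein of peroxisomal import, at 121 in fresh MuSC and 256 in the −OSM culture. Of all measured genes 15.0% were at least 2-fold lower in fresh MuSC than in the −OSM culture. In the +OSM culture against fresh MuSC Cat, encoding catalase, and Pex19 were higher, at 2269 against 978 and 584 against 283. The thiolase gene Acaa1a was lower there, at 120 against 255. Of all measured genes 13.8% were higher and 17.2% lower in that comparison.

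Abce1, which splits ribosomes after termination, had signals of 1532 in fresh MuSC, 1917 in the −OSM culture and 2559 in the +OSM culture, within 2-fold throughout as deposited, and its other probe sets had 872, 1318 and 1322 and 89, 50 and 127. Abcf1, a factor of translation initiation, had 889, 1718 and 1248, with log2 ratios of fresh MuSC over the −OSM culture from -1.08 to 0.58 over its 5 other probe sets. Abcf2 had 222, 353 and 276. Abcf3 had 145, 385 and 396, or 2.66-fold less in fresh MuSC than in the −OSM culture, but its other probe sets had 110, 63 and 90 and 67, 65 and 58. The lower level of Abcf3 in fresh MuSC therefore rests on 1 of 3 probe sets. By the probe sets used, all 4 genes of this group had their lowest signal in fresh MuSC. The number at least 2-fold lower there than in the −OSM culture was 1 of 4, beside 15.0% of all measured genes. It was 3 after median centring, 1 after quantile normalization and 0 with the mean of probe sets. Beside these stand 28.0%, 19.4% and 12.5% of all measured genes. Of 5 measured partners in ribosome recycling and termination, 2 were at least 2-fold lower in fresh MuSC than in the −OSM culture, against 15.0% of all. These were Gspt1, a release factor, at 1033 against 2645, and Eif6, which keeps ribosomal subunits apart, at 647 against 1759. With the mean of probe sets 0 of the 5 were lower and 1 was higher, against 12.5% and 18.6% of all. Between the cultures 0 differed by 2-fold.

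Of the 45 ABC genes 26 have several of the family's 92 probe sets, and these tell how far a ratio depends on the probes. For genes at least 2-fold apart between fresh MuSC and the −OSM culture, 10 other probe sets lay above the floor on at least 1 array. Of these 7 went the same way, 3 of them by at least 2-fold, and the 3 opposite ones belong to Abcb1b and Abcf3. Those of Abca1, Abca9 and Abcb1a, at 70, 48 and 181, passed the floor in fresh MuSC alone. That of Abcb1b, at 43, passed it in the −OSM culture alone. Their direction was fixed by that, and probe sets under the floor on both arrays were not counted. In the +OSM culture over fresh MuSC 7 of 9 went the same way, 4 by at least 2-fold. Those of Abca1, Abca9 and Abcb1a again passed in fresh MuSC alone. In the +OSM culture over the −OSM culture only 1 such probe set exists, that of Abcb1b near the floor. It went the other way, a direction fixed by its passing the floor in the −OSM culture alone. Abcc5 has 10 probe sets, of which 8 were measured between fresh MuSC and the −OSM culture. Its probe set of highest mean signal and the next had less in fresh MuSC, at log2 ratios of -0.94 and -1.15, whereas 5 others had more, at 0.43 to 0.79. No direction is given for Abcc5 between fresh and cultured cells for that reason.

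**Figure D4:**
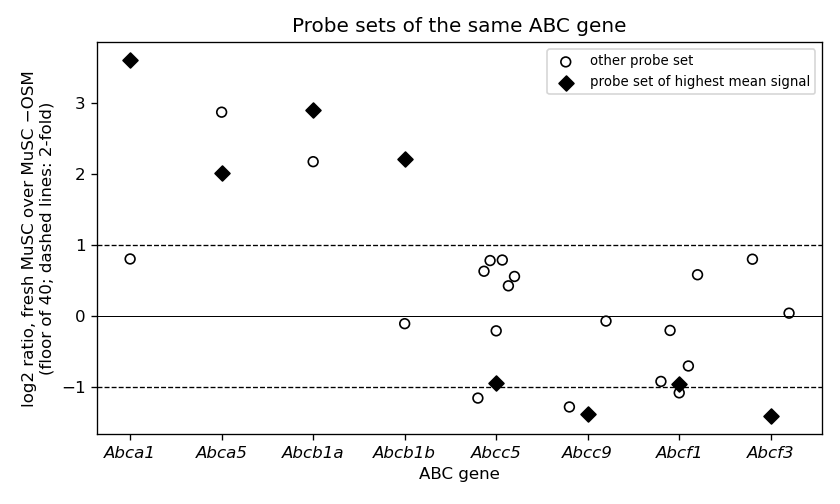
log2 ratio of fresh MuSC over the −OSM culture (y axis) for each measured probe set of 8 ABC genes with several probe sets, chosen after their values were seen, with filled diamonds for the probe set of highest mean signal, open circles for the others and dashed lines at 2-fold. Points whose lower signal is not above the floor of 40 are lower bounds. The probe sets of Abca5 and of Abcb1a lie at 2.01 and above, those of Abcc5 on both sides of 0, and Abcf3 at -1.41 by one probe set against 0.04 and 0.80 by the others.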

How the data were processed

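RNA of sorted mouse MuSC was hybridized to Affymetrix MOE_430_2 arrays, 1 for each of 3 conditions, after amplification with 3′ IVT Express reagents. The authors processed the scans with MAS5 (version not stated in the paper or labels) and deposited signal intensity on a linear scale. Sample labels gave the conditions, and columns were matched to them by accession.

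From these values 64 control probe sets were left out, which left 45037. The platform annotation names 1 gene for 34945, several for 932 and none for 9160, and only the first were used. The probe set with the highest mean over the arrays stood for its gene. Signals were raised to a floor of 40, log2 ratios were taken between arrays, and genes past 2-fold were counted beside the same count over all genes. The identifiers of all 45 members were found in the RefSeq gene table and 0 symbols changed. Members, gene lists, markers and alternatives were chosen with earlier results of these data known. All members are named. Members past 2-fold in a comparison or among the 10 of highest mean signal have all 3 signals. Promoter sequences are RefSeq's on GRCm38.p6. Steps were tested on simulated data. Alternatives were median centring of the arrays, quantile normalization, floors of 20 and 80, no floor with a pseudocount of 1, the mean over probe sets, the lowest probe set above the floor, and thresholds of 1.5-fold and 3-fold. Python 3.11.15, numpy 2.4.6, pandas 2.3.3, scipy 1.17.1 and matplotlib 3.10.9 were used.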

Additional observations from a re-analysis of the deposited data

How the results depend on the processing

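Each condition is 1 array, so no replicate could be left out and no precision is known. No paired analysis was possible because each group has 1 array. Of the 15 ABC genes past 2-fold between fresh MuSC and the −OSM culture, 9 passed it in the same direction under the 7 alternatives of scaling, floor and probe set, and so did 2 of 5 between the cultures and 7 of 11 in the +OSM culture over fresh MuSC. Genes with 1 probe set are unaffected by the choice of probe set by construction. Genes with signals above every floor used are likewise unaffected by raising or lowering the floor. For Abcb6 and Abcg2 both hold, so only the scaling of the arrays was a real check. With its lowest probe set above the floor Abcf3 reversed, to log2 ratios of 0.044 for fresh MuSC against the −OSM culture and -0.21 for the +OSM culture against fresh MuSC. The cause was not tested, here or for the counts that follow.

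Median centring gave 12 members (41.4%) lower in fresh MuSC than in the −OSM culture in place of 6, against 28% of all genes. It gave 13 (43.3%) higher in the +OSM culture than in fresh MuSC in place of 3, against 33.7% of all. Quantile normalization gave 10 (34.5%) and 6 (20%) for these, against 19.4% and 17.1% of all. The median log2 ratio of ABC genes in the +OSM culture over fresh MuSC was 0.13, and 0.88 after centring, where the median of all genes moved from -0.14 to 0.57. In fresh MuSC over the −OSM culture centring moved the median of all genes from 0.14 to -0.36 and that of ABC genes from 0.00 to -0.57.

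Without a floor 17 members (37.8%) were higher in fresh MuSC than in the −OSM culture in place of 9, against 28.7% of all genes. With OSM 5 (11.1%) were higher and 5 (11.1%) lower than without it, against 12.1% and 15.4% of all, in place of 4 and 1. The share higher with OSM was thus not above that of all genes. In the +OSM culture over fresh MuSC 7 (15.6%) were higher and 16 (35.6%) lower in place of 3 and 8, against 15.4% and 30% of all. A floor of 20 gave 5 higher (14.3%) in this last comparison, against 12.8% of all genes. A floor of 80 gave 2 (9.52%) higher with OSM than without it in place of 4, against 5.39% of all. At 1.5-fold, 11 (36.7%) were lower in fresh MuSC than in the −OSM culture, against 24.3% of all genes. With OSM 3 (12%) were lower than without it, against 13.1% of all. In the +OSM culture 9 (29%) were higher than in fresh MuSC, against 23.8% of all. At 3-fold these counts were 1, 0 and 1, against 7.42%, 1.21% and 6.08% of all genes. Higher with OSM than without it at 3-fold was 1 (4%), against 2.26% of all.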
